A study of Rattus norvegicus with 23 samples.

Results

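The collagen chains were the 44 genes, of 20301 in the table, whose symbol consists of Col, a type number, the letter a and a chain number. They comprised 11 fibrillar chains, 6 chains of type IV, and 27 others, among them 9 fibril-associated chains, 6 chains of type VI and 4 transmembrane chains. The chains were chosen by symbol and grouped by type, with no measured value. Collagens are secreted or membrane-bound proteins in which 3 polypeptide chains wind into a triple helix. Several types are built from products of more than 1 gene. Fibrillar collagens form the fibrils of vessel walls and meninges, type IV forms the network of basement membranes, and type VI forms beaded filaments close to them. In the brain, collagens lie mainly around vessels and in the meninges and are known chiefly as products of fibroblasts, mural cells and endothelium.

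The values came from microglia, the resident macrophages of the brain, isolated with magnetic beads against CD11b/c. The Wistar rat pups were operated on at an age of 7 days, and the cells were isolated 24 h later. The paper states that macrophages carry these markers too, so some infiltrating macrophages cannot be fully excluded. The Sham group (n = 6) had a neck incision under isoflurane, and the study's methods list no injection for it, while the series' design text can be read as giving LPS or NaCl before sham surgery too. The LPS group (n = 5) received lipopolysaccharide, a bacterial inflammatory stimulus, at 0.1 mg/kg intraperitoneally 4 h before the sham operation. The NaCl/HI group (n = 6) was injected with 0.9% NaCl, and hypoxia-ischemia (HI) followed by ligation of the left common carotid artery and 8% oxygen for 50 min. The LPS/HI group (n = 6) received the same LPS dose 4 h before the same ligation and hypoxia. After HI the pups were kept at normothermia for 5 h. A Sham or LPS sample was the whole brain of 1 pup and a sample of either HI group was 2 pooled ipsilateral hemispheres, so HI cannot be told apart from hemisphere and pooling.

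All values are log2 values made with a regularised transformation (rlog) on a scale of counts that is not corrected for transcript length, so a value was compared between groups and not between genes. Depth is unknown because no counts were used here, and library medians lay between 7.75 and 7.82. The collagen chains reached from Col6a5 with a mean of 2.92 to Col4a1 with a mean of 13.84, and 3 chains (Col6a5, Col9a1 and Col28a1) lay under the 25th percentile of all genes at 4.14. Of the 15 microglial markers, the mean lay between 13.19 and 13.62 in all samples. Markers of other cells were measured as well, with Sham means of 10.81 for 21 endothelial and 10.23 for 10 astrocyte markers. Which cells the RNA of each chain came from was not tested. In bulk samples such as these, fewer cells of a type and less RNA per cell cannot be told apart. The labels number the libraries from 1 to 23 without saying when they were made. For this description they were divided by number alone, 1 to 12 as a first and 13 to 23 as a second series of 3 samples per group, except for LPS in the second, with 2 samples (replicates 4 and 5). For 22 of the 44 chains these 2 samples were the lowest of the LPS group, and 11 of the 22 were called in a comparison with LPS (Col1a1, Col1a2, Col3a1, Col4a1, Col4a2, Col5a1, Col6a1, Col6a2, Col6a3, Col12a1 and Col15a1). The difference within each series is given for these 11 in those comparisons. None of the 38 called differences of a chain turned its sign within either series.

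Several chains of a common trimer are encoded next to each other. When protein-coding genes were ordered by their lowest coordinate, 7 pairs of chains directly followed each other. Of these, Col4a1 with Col4a2, Col4a3 with Col4a4 and Col6a1 with Col6a2 are partners in a trimer. The others are Col6a6 with Col6a5, Col6a5 with Col6a4, Col9a1 with Col19a1 and Col3a1 with Col5a2. Col4a6 and Col4a5 on chromosome X were not among the 7, since 1 predicted gene lies inside Col4a6 and comes between them in that order. Promoter windows from RefSeq (build GRCr8, 250 bases before to 50 bases after a start) were at hand for 35 of the 44 chains. Col4a1 and Col4a2 on chromosome 16 start 77 bases apart on opposite strands, and Col4a3 and Col4a4 on chromosome 9 start 413 bases apart. The first 2 windows below are shown because the paired type IV chains differed in how closely their levels followed each other, and the third because Col1a2 differed between groups. Of the other chains that differed, the windows of Col6a1 and Col6a3 were also searched, held 0 matches of the 3 motifs and are not shown. The Col4a1 window, at chr16:84885347-84885646 on the plus strand, also holds the start of Col4a2, at base 174. The Col4a3 window is chr9:91323740-91324039 and the Col1a2 window chr4:33518307-33518606, both on the plus strand. Capitals mark 3 motifs on either strand, the CCAAT box, the GC box GGGCGG and the TATA box TATAAA, and no marked motif overlapped another.
Col4a1: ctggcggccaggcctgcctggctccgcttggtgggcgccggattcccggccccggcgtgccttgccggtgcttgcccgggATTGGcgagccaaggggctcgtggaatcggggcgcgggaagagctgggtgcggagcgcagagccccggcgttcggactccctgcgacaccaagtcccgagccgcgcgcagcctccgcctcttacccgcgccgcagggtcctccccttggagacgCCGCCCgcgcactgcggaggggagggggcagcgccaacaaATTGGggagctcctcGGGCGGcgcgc
Col4a3: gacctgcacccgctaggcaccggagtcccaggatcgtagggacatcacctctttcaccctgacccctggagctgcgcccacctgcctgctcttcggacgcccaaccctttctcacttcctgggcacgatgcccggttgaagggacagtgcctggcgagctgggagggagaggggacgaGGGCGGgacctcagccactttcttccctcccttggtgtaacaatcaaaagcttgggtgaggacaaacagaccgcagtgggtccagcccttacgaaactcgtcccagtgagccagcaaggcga
Col1a2: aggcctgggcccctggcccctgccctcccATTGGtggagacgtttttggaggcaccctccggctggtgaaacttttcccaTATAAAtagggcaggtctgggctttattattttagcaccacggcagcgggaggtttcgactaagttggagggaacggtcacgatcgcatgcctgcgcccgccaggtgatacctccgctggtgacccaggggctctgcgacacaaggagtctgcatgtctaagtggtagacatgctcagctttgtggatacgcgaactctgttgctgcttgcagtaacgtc
Of 33465 windows in all, 37.5% hold CCAAT, 33.1% GGGCGG and 14.2% TATAAA. Of the 38 windows of collagen chains, 12 hold CCAAT (31.6%), 20 hold GGGCGG (52.6%) and 4 hold TATAAA (10.5%). In the windows shown, Col4a1 holds CCAAT and GGGCGG 2 times each, Col4a3 holds GGGCGG once, and Col1a2 holds CCAAT and TATAAA. Counted from the annotated start, the Col1a2 matches begin at -221 (CCAAT) and -170 (TATAAA). Those of Col4a1 begin at -170 and 24 (CCAAT) and at -16 and 39 (GGGCGG), and that of Col4a3 at -72. A match is a run of letters and was not tested for binding.

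The comparison of LPS/HI with Sham asked how the chains stood after both insults. Chains of type I, III, IV, VI, XIII and XV were upregulated in the LPS/HI group, and the fibril-associated chain Col19a1 and the transmembrane chain Col25a1 were downregulated. In limma with adjustment over all genes, 9 chains rose and 2 fell of 44, beside 8.77% of all 20301 genes called in this comparison (5.3% higher and 3.48% lower). The median difference of the 44 chains was 0.13 and that of all genes -0.0024. By type, 3 of 11 fibrillar, 1 of 6 type IV, 3 of 6 type VI and 2 of 4 transmembrane chains were called. No chain passed an adjusted p under 0.05 together with a fold of 2 in any comparison, beside 0.0936% of all genes in this one, 0.069% in LPS against Sham, 0.00493% in NaCl/HI against Sham, 0.0345% in LPS/HI against LPS, 0.0148% in LPS/HI against NaCl/HI, 0.0591% in LPS against NaCl/HI and 0.00985% in the interaction of LPS with HI. Of 15 fibroblast, 13 mural cell and 21 endothelial markers, 2, 3 and 2 rose in LPS/HI against Sham.

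Type VI held the chain with the lowest adjusted p. Col6a2 lay at 9.28, 9.46 and 9.52 (lowest, median and highest) in the Sham group and at 9.66, 9.84 and 9.93 in the LPS/HI group. The groups did not overlap, and the difference was 0.40 (SE 0.07, adjusted p = 0.00223). Col6a1, the partner that joins Col6a2 and Col6a3 in the common type VI trimer, lay at 9.30, 9.39 and 9.51 in Sham and at 9.60, 9.72 and 9.89 in LPS/HI, again without overlap (difference 0.33, adjusted p = 0.0108). Col6a3, the longest of these chains, reached 9.33 in the highest Sham sample and 9.25 in the lowest LPS/HI sample, so the groups overlapped (difference 0.34, adjusted p = 0.0168). The calls of these 3 chains held in each of the 23 fits without 1 library. The alternative type VI chains Col6a4, Col6a5 and Col6a6 were not called here, with differences between -0.20 and -0.03.

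Among fibrillar chains, Col1a1, Col1a2 and Col3a1 rose, which build the type I and type III fibrils of vessel walls and meninges. Col1a1 lay at 10.20, 10.32 and 10.73 in Sham and at 10.67, 10.78 and 10.82 in LPS/HI. The highest Sham sample reached into the LPS/HI range, and the difference was 0.39 (SE 0.11, adjusted p = 0.0269). Col1a2 differed by 0.29 (adjusted p = 0.0314). Col3a1 lay at 11.45, 11.58 and 11.79 in Sham and at 11.80, 11.86 and 11.99 in LPS/HI. All Sham samples were below all LPS/HI samples by a narrow margin, and the difference was 0.29 (SE 0.07, adjusted p = 0.0212). The spread of Col1a1 was small in LPS/HI (SD 0.06) beside that in the other groups (SD 0.20 to 0.23). Of the 44 chains, 5 did not overlap between LPS/HI and Sham (Col3a1, Col6a1, Col6a2, Col13a1 and Col19a1), beside 6.37% of all genes.

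**Figure D1:**
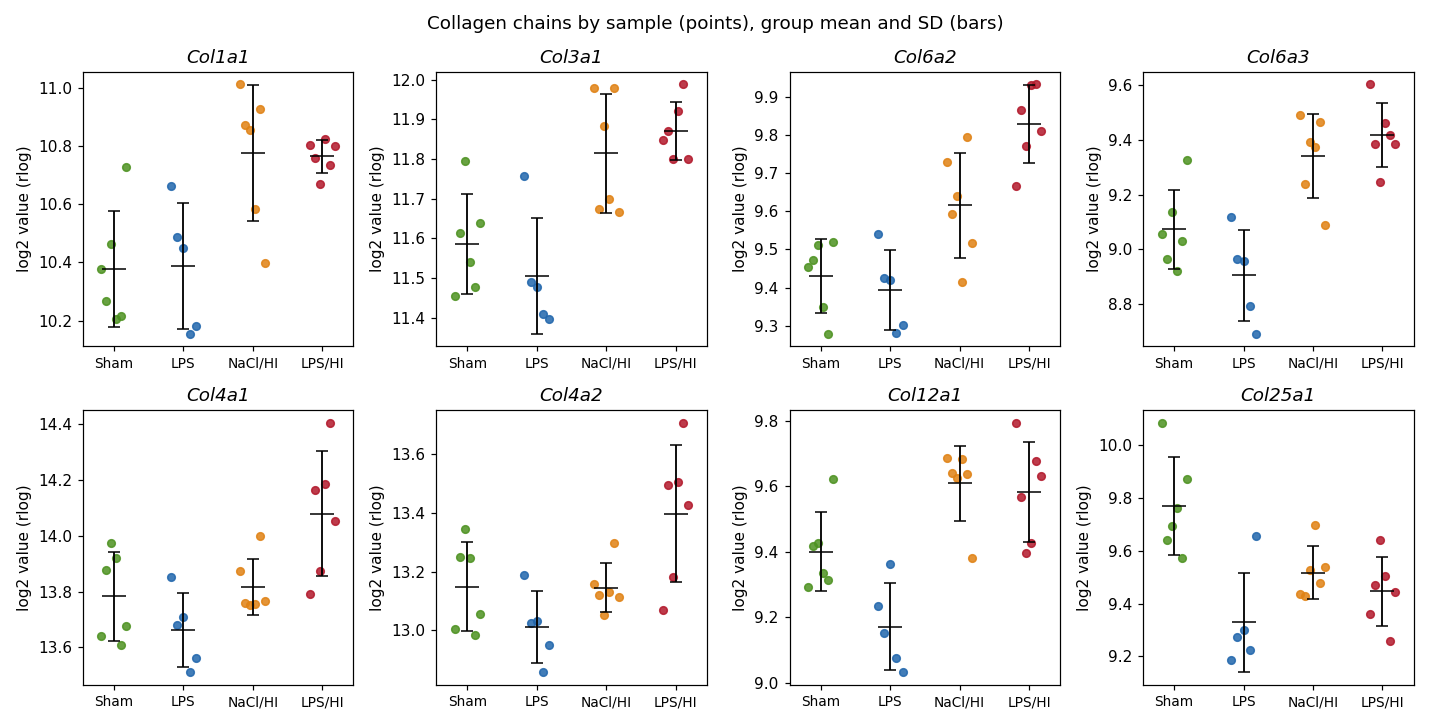
Log2 values (rlog) of 8 collagen chains in each sample by group, with points for samples and bars for the group mean and SD, on axes that do not start at 0. The 6 LPS/HI samples of Col6a2 lie between 9.66 and 9.93, all above the Sham and LPS samples, while Col25a1 was highest in the Sham group.

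The basement membrane chain Col4a1 lay at 13.61, 13.78 and 13.98 in Sham and at 13.79, 14.11 and 14.41 in LPS/HI. The groups overlapped, and the difference of 0.30 (SE 0.09, adjusted p = 0.0485) was near the threshold. It was 0.11 within the first library series and 0.48 within the second, and the call was lost in 16 of the 23 fits without 1 library, with an adjusted p up to 0.129 without LPS/HI replicate 5. Col15a1, a basement membrane zone collagen of vessels and muscle, rose by 0.38 (adjusted p = 0.0352). Col18a1, its relative from which endostatin is released, was not called. Col13a1, a transmembrane collagen of cell contacts, lay at 5.15, 5.29 and 5.32 in Sham and at 5.50, 5.56 and 5.68 in LPS/HI. No sample overlapped, and the difference was 0.33 (adjusted p = 0.0205). Col19a1, known from basement membrane zones and nerve terminals, lay at 4.96, 5.06 and 5.29 in Sham and at 4.50, 4.75 and 4.90 in LPS/HI (difference -0.33, adjusted p = 0.0208). Leaving out LPS/HI replicate 5 reduced the called chains to 3, and leaving out Sham replicate 5 or LPS/HI replicate 2 reduced them to 6.

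The comparison of LPS/HI with LPS asked what HI added in pups that had received LPS. Here 10 chains were upregulated and 0 downregulated, beside 1.94% of all genes called (1.22% higher and 0.719% lower). The called chains were the type VI chains Col6a1, Col6a2 and Col6a3, the type IV chains Col4a1 and Col4a2, the fibrillar chains Col1a2, Col3a1, Col5a1 and Col5a2, and the fibril-associated chain Col12a1. The median difference was 0.15 over the 44 chains and 0.0016 over all genes, and 34 chains were higher and 10 lower in LPS/HI. Samples of the 2 groups did not overlap for 8 chains, all higher in LPS/HI, beside 4.17% of all genes. Of the fibroblast, mural cell and endothelial markers, 3, 2 and 3 rose in the same comparison. LPS/HI is a group of both this comparison and the one with Sham, so the calls are not independent.

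Col6a3 showed the largest difference of the 44 chains in this comparison. Its values in the LPS group were 9.12, 8.96, 8.96, 8.80 and 8.69, and in LPS/HI the lowest, median and highest were 9.25, 9.40 and 9.60. No sample overlapped, and the difference was 0.51 (SE 0.09, adjusted p = 0.00832), with 0.40 within the first library series and 0.68 within the second. Col6a2 measured 9.54, 9.42, 9.42, 9.28 and 9.30 in LPS and was 0.43 higher in LPS/HI (adjusted p = 0.00794, within the series 0.30 and 0.60). Col6a1 measured 9.49, 9.34, 9.41, 9.16 and 9.08 in LPS and was also 0.43 higher (adjusted p = 0.00883, within the series 0.24 and 0.69). All 3 calls held without any 1 library.

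Col4a1 and Col4a2, the chains of the type IV network present in nearly all basement membranes, moved by similar amounts. Col4a1 measured 13.85, 13.68, 13.71, 13.51 and 13.56 in LPS, against 13.79, 14.11 and 14.41 (lowest, median and highest) in LPS/HI. The difference was 0.42 (SE 0.10, adjusted p = 0.0301), and the groups overlapped through LPS replicate 1. Col4a2 measured 13.19, 13.02, 13.03, 12.86 and 12.95 in LPS, against 13.07, 13.46 and 13.71 in LPS/HI (difference 0.39, adjusted p = 0.0385). Within the library series the differences of Col4a1 were 0.20 in the first and 0.68 in the second, and those of Col4a2 were 0.17 and 0.64. Without LPS replicate 4 both calls were lost (adjusted p = 0.114 and 0.136). The other type IV chains, Col4a3, Col4a4, Col4a5 and Col4a6, differed by 0.10 to 0.20 in this comparison and were not called.

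Of the fibrillar chains, Col1a2 differed by 0.43 (SE 0.09, adjusted p = 0.0145) and Col3a1 by 0.37 (SE 0.08, adjusted p = 0.0175). Within the first and second series, Col1a2 differed by 0.29 and 0.63 and Col3a1 by 0.26 and 0.50. Col1a2 measured 10.96, 10.75, 10.74, 10.43 and 10.60 in LPS, all below the lowest LPS/HI sample at 11.03. Col1a1 measured 10.66, 10.49, 10.45, 10.15 and 10.18 in LPS, also all below LPS/HI, but its difference of 0.38 (SE 0.11) was not called (adjusted p = 0.0736). Col5a1 and Col5a2, chains of type V that set the thickness of type I fibrils, were each 0.31 higher (adjusted p = 0.0467 and 0.0345). Of the 23 fits without 1 library, the call of Col5a1 held in 8 and that of Col5a2 in 15, with an adjusted p up to 0.155 and 0.0888 without LPS replicate 4. Within the series Col5a1 differed by 0.19 and 0.46. Col12a1, which lies on the surface of type I fibrils, measured 9.24, 9.15, 9.36, 9.08 and 9.03 in LPS and 9.40, 9.60 and 9.79 in LPS/HI (difference 0.41, SE 0.08, adjusted p = 0.011, within the series 0.34 and 0.52). Its groups did not overlap, and the call held without any 1 library, with an adjusted p of at most 0.0494. The number of called chains fell to 4 without LPS replicate 4, to 5 without LPS replicate 2 or 5, and to 6 without LPS/HI replicate 2, 4 or 5.

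LPS without HI was compared with Sham to see how the chains stood after the stimulus without HI. As no injection is listed for Sham, the stimulus cannot be told apart from the injection here, nor can HI in NaCl/HI against Sham. Here 5 chains were downregulated and 1 was upregulated, beside 17.8% of all genes called (7.56% lower and 10.2% higher), so the share of chains called, 13.6%, was below that background. The median difference of the chains was -0.11, against -0.0144 over all genes, and 32 chains were lower and 12 higher. The chains that fell were Col25a1, Col24a1, Col19a1, Col9a2 and Col12a1, and Col5a3 rose. No type IV or type VI chain was called, and the 6 type IV chains had differences between -0.17 and -0.11.

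Col25a1, a neuronal transmembrane collagen known from amyloid plaques, had the largest difference. It lay at 9.57, 9.73 and 10.09 in Sham and measured 9.19, 9.27, 9.30, 9.23 and 9.66 in LPS. Only LPS replicate 5 reached the Sham range, and the difference was -0.44 (SE 0.09, adjusted p = 0.00209). Col24a1, a minor fibrillar chain, lay at 5.00, 5.21 and 5.42 in Sham and measured 4.94, 4.91, 4.79, 4.77 and 4.86 in LPS. It was the chain of the 44 whose LPS and Sham samples did not overlap, beside 13.9% of all genes (difference -0.37, SE 0.10, adjusted p = 0.0147). Both calls held without any 1 library. Col5a3, a type V chain of restricted distribution, lay at 10.71, 10.86 and 11.14 in Sham and measured 11.03, 11.36, 11.06, 11.26 and 11.09 in LPS (difference 0.27, adjusted p = 0.0381, lost without LPS replicate 2 with an adjusted p of 0.119). Col19a1 and Col9a2, both fibril-associated, each differed by -0.26 (adjusted p = 0.0465 and 0.0257). Col12a1 differed by -0.23, at an adjusted p of 0.0498, with -0.13 within the first library series and -0.37 within the second. Between 2 and 6 chains were called when 1 library was left out, with 2 without LPS replicate 4 and 3 without LPS replicate 2 or Sham replicate 1, 2, 4 or 5.

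Neuronal markers moved in the same comparison. Of 10 neuronal markers, 6 (60%) fell and 0 rose between LPS and Sham, beside 17.8% of all genes called and 7.56% lower. Their mean lay between 6.97 and 7.16 in Sham and between 6.71 and 6.93 in LPS. In LPS/HI against Sham, 3 of these markers (30%) fell, beside 8.77% of all genes called and 3.48% lower. Col25a1 was lower in both comparisons, and the part of neuronal RNA in its difference was not tested.

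HI after NaCl was compared with Sham. No chain was called, beside 0.00985% of all genes (2 of 20301), and 13 chains had an unadjusted p under 0.05 in limma. The largest differences were those of Col15a1 and Col1a1. Col15a1 lay at 8.18, 8.63 and 8.76 in Sham and at 8.79, 8.99 and 9.19 in NaCl/HI. It was the chain without overlap between these groups, beside 1.01% of all genes, with a difference of 0.45 (SE 0.11, adjusted p = 0.119). Col1a1 lay at 10.40, 10.87 and 11.01 in NaCl/HI, which overlapped with Sham, with a difference of 0.40 (SE 0.11, adjusted p = 0.134). Col8a1, a short chain made by endothelium, differed by 0.30 with a wide error (SE 0.18, adjusted p = 0.431), and the sign was opposite in the library series, 0.79 in the first and -0.19 in the second. Col4a1 differed by 0.03 (95% confidence interval -0.16 to 0.23) and Col4a2 by 0.00 (-0.19 to 0.19). Without NaCl/HI replicate 4, 2 chains were called.

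The LPS/HI and NaCl/HI groups were compared to see what LPS added to HI. No chain was called, beside 0.202% of all genes, and 7 chains had an unadjusted p under 0.05. Col13a1 lay at 5.08, 5.33 and 5.44 in NaCl/HI and at 5.50, 5.56 and 5.68 in LPS/HI. It was the chain without overlap, beside 1.33% of all genes (difference 0.30, SE 0.08, adjusted p = 0.13). Col7a1, the chain of anchoring fibrils, differed by 0.27 (adjusted p = 0.199), Col4a1 by 0.26 (0.07 to 0.45, adjusted p = 0.272) and Col4a2 by 0.25 (0.06 to 0.44, adjusted p = 0.281). All 21 endothelial markers were higher as well, with a median of 0.14 and 10 at an unadjusted p under 0.05, and 0 were called in limma. Their part in the differences of type IV was not tested. For the type I chains the differences were -0.01 for Col1a1 (-0.23 to 0.21) and 0.01 for Col1a2 (-0.16 to 0.18). Col3a1 differed by 0.06 (-0.09 to 0.21). The cartilage chains Col2a1 and Col11a2 differed by -0.26 and -0.22, with confidence intervals that include 0. Without NaCl/HI replicate 6, the highest of that group for both, the differences were -0.07 and -0.11. The mean of the oligodendrocyte lineage markers was also highest in that library, and its part in these differences was not tested.

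LPS and NaCl/HI, the 2 groups with 1 insult each, differed in 11 chains, all lower in LPS, beside 8.98% of all genes called (3.66% lower and 5.32% higher). Of the 11 fibrillar chains, 7 were lower (Col1a1, Col1a2, Col3a1, Col5a1, Col5a2, Col11a1 and Col24a1), and of the others Col6a1, Col6a3, Col12a1 and Col15a1. No type IV chain was called. Of 15 fibroblast markers 3 were lower in LPS as well, of 13 mural cell markers 0 were called (6 at an unadjusted p under 0.05 in limma), of 21 endothelial markers 2 were lower and 1 higher, and of 15 microglial markers 5 were lower and 2 higher. The median difference of the chains was -0.13, against -0.0025 over all genes, and 38 of the 44 were lower in LPS. Col12a1 lay between 9.38 and 9.69 in NaCl/HI, with a median of 9.64, above all 5 LPS samples (difference -0.44, SE 0.08, adjusted p = 0.00123). It was the chain without overlap, beside 7.31% of all genes. Col6a3 differed by -0.43 (adjusted p = 0.00287), Col1a2 by -0.42 (adjusted p = 0.00389) and Col3a1 by -0.31 (adjusted p = 0.0137). Within the first and second series the differences were -0.40 and -0.51 for Col12a1, -0.36 and -0.56 for Col6a3, -0.34 and -0.56 for Col1a2, and -0.27 and -0.38 for Col3a1. Those of the other called chains with both second-series samples lowest were -0.38 and -0.47 for Col1a1, -0.22 and -0.36 for Col5a1, -0.23 and -0.36 for Col6a1, and -0.32 and -0.54 for Col15a1. The calls of Col12a1, Col6a3, Col1a2 and Col3a1 held without any 1 library, while the count of 11 fell to 4 without LPS replicate 4 or 5 or NaCl/HI replicate 1 or 5, to 5 without LPS replicate 2, to 6 without NaCl/HI replicate 2 and to 7 without LPS replicate 3. This comparison shares the LPS group with the one of LPS/HI with LPS, so both rest on the same 5 samples.

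**Figure D2:**
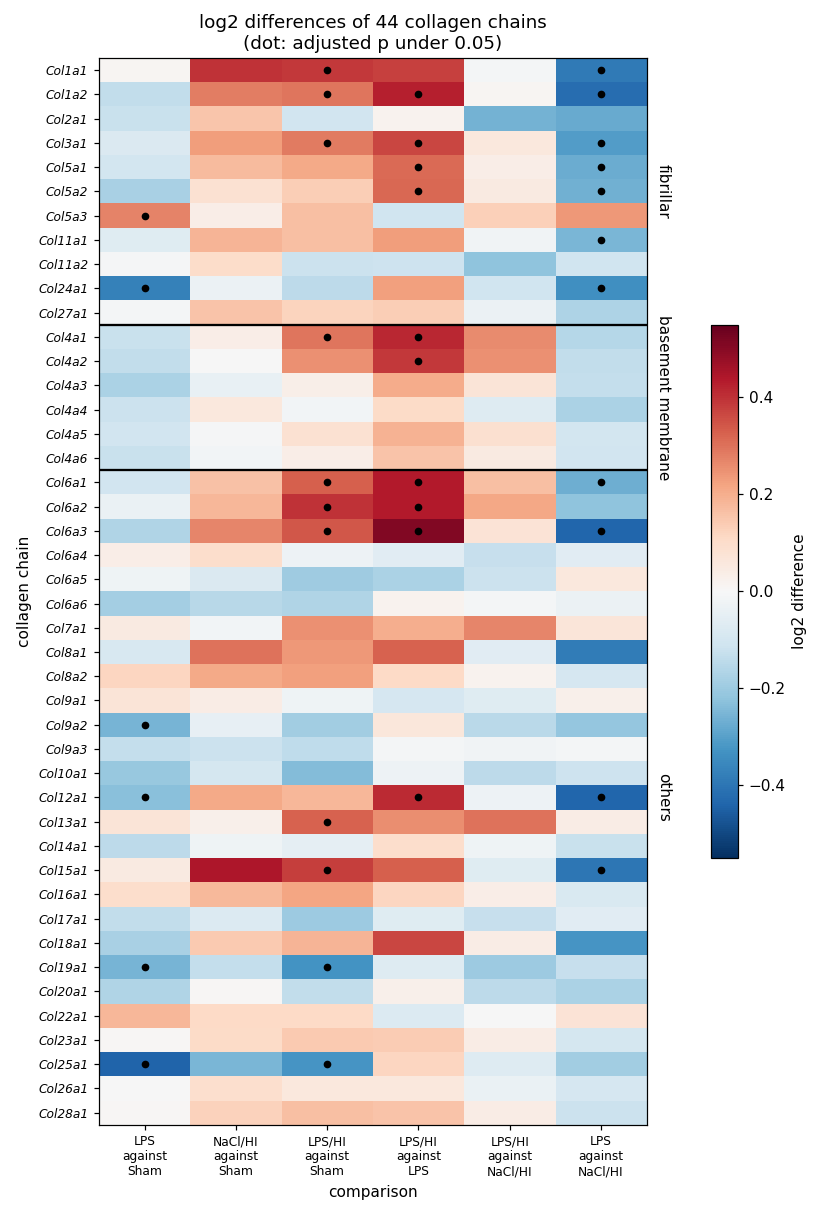
Log2 differences of the 44 collagen chains (rows, by type) in 6 comparisons (columns), with red for higher and blue for lower in the group named first and a dot where the adjusted p was under 0.05. The 10 dots of LPS/HI against LPS are all red and the 11 of LPS against NaCl/HI all blue, and no dot stands in NaCl/HI against Sham or LPS/HI against NaCl/HI.

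The interaction of LPS with HI was taken as the difference of LPS/HI and LPS less that of NaCl/HI and Sham. It asks whether HI acted differently after LPS, but no injection is listed for Sham, so an effect of injection cannot be told apart from it. No chain was called, beside 1.08% of all genes, and 8 chains had an unadjusted p under 0.05. The largest values were 0.39 for Col4a2 (SE 0.13, adjusted p = 0.154), 0.38 for Col4a1 (SE 0.13, adjusted p = 0.172) and 0.37 for Col25a1 (SE 0.13, adjusted p = 0.162). All 6 type IV chains had a positive value, with a median of 0.22. All 21 endothelial markers were also positive, with a median of 0.33, and 2 of them (Flt1 and Abcb1a) were called, and their part in the values of type IV was not tested. Within the library series, Col4a1 gave 0.23 and 0.57 and Col25a1 gave 0.58 and 0.12. For Col1a1 the interaction was -0.02 (95% confidence interval -0.34 to 0.30).

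For the remaining chains no difference was called. The 14 chains that no criterion named (Col4a3, Col4a4, Col4a5, Col4a6, Col9a1, Col9a3, Col14a1, Col16a1, Col17a1, Col20a1, Col23a1, Col26a1, Col27a1 and Col28a1) had differences between -0.20 for Col17a1 and 0.22 for Col16a1 over the 6 comparisons, both in LPS/HI against Sham. Their lowest adjusted p was 0.0529, for Col16a1 in that comparison. Among the named chains that were never called, Col8a2 and Col8a1 form the type VIII network of vessels and the cornea, and Col10a1 belongs to growth plate cartilage. Over all 6 comparisons 19 chains were called at least once and 25 never, with 8 of 11 fibrillar, 2 of 6 type IV and 9 of 27 other chains among the former.

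Chains that share a trimer were compared over the 23 samples for 13 partner pairs, with permutation tests of 100000 resamples adjusted over the pairs. Within groups, values were shuffled over all 23 samples after the group means were subtracted. That and the surrogate variables removed by the authors leave fewer independent values than samples, so p-values within groups can come out too low. Col4a1 and Col4a2 followed each other most closely. Their Pearson correlation was 0.989 and Spearman's rho 0.979 (adjusted permutation p 0.000026 and 0.000032, the smallest the permutations allowed), and r stayed at 0.983 after the group means were subtracted. Col4a1 and Col4a2 varied over 0.89 and 0.85 on the log2 scale, while their difference varied over 0.11. Col6a1 and Col6a2 gave r = 0.951 (rho 0.972, within groups 0.881), and Col1a1 and Col1a2 gave r = 0.940 (rho 0.915, within groups 0.919). Over all 946 pairs of chains the median r was 0.175, or 0.135 within groups.

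The other partners were looser. Col6a3 gave r = 0.850 with Col6a1 and 0.806 with Col6a2, Col5a1 with Col5a2 gave 0.751, Col4a5 with Col4a6 0.701, Col8a1 with Col8a2 0.620 and Col4a3 with Col4a4 0.594. These 6 correlations passed the permutation test with an adjusted p of at most 0.00416. The test asked only whether r differs from 0. The rho of these pairs lay between 0.544 and 0.862 (adjusted permutation p at most 0.0115). After the group means were subtracted, their r was 0.591, 0.495, 0.527, 0.583, 0.564 and 0.546 in the same order (adjusted permutation p at most 0.0216), and the rho of Col5a1 with Col5a2 no longer passed (0.366, adjusted permutation p 0.103). Without the 2 samples farthest from the median within groups, these r lay between 0.364 for Col5a1 with Col5a2 and 0.826 for Col6a2 with Col6a3. Leaving out the 2 samples farthest from the median of the first chain, r lay between 0.562 and 0.823 for them. Of all 946 pairs of chains, 84.4% had a lower r than Col4a3 with Col4a4 and 98.2% a lower r than Col6a3 with Col6a1. For the cartilage chains Col11a1 and Col11a2, r was 0.515 (adjusted permutation p 0.011) and fell to 0.137 without NaCl/HI replicate 6 and Sham replicate 1, so that pooled relation rested on those samples. Their rho was 0.292 (adjusted permutation p 0.2). Within groups r was 0.722 (adjusted permutation p 0.00107) and rho 0.487 (adjusted permutation p 0.0281), but r fell to 0.226 without the same 2 samples, so the relation within groups rested on them as well. These samples were the highest of all 23 for both chains, and they also had the highest means of the 10 oligodendrocyte lineage markers, 10.21 in NaCl/HI replicate 6 and 9.50 in Sham replicate 1, against 8.54 to 9.32 in the others. The part of that cell type in the relation was not tested. The type IX pairs did not pass over the 23 samples, with r of 0.260, 0.00879 and 0.358 (adjusted permutation p 0.251, 0.969 and 0.113). Within groups Col9a1 with Col9a2 passed by r (0.459, adjusted permutation p 0.0321) and not by rho (0.410, adjusted permutation p 0.0704), and r was 0.370 without the 2 samples farthest from the median within groups. Beside these values, the starts of Col4a3 and Col4a4 lie 413 bases apart and those of Col4a5 and Col4a6 lie 1415 bases apart, while Col1a1 and Col1a2 are on different chromosomes.

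**Figure D3:**
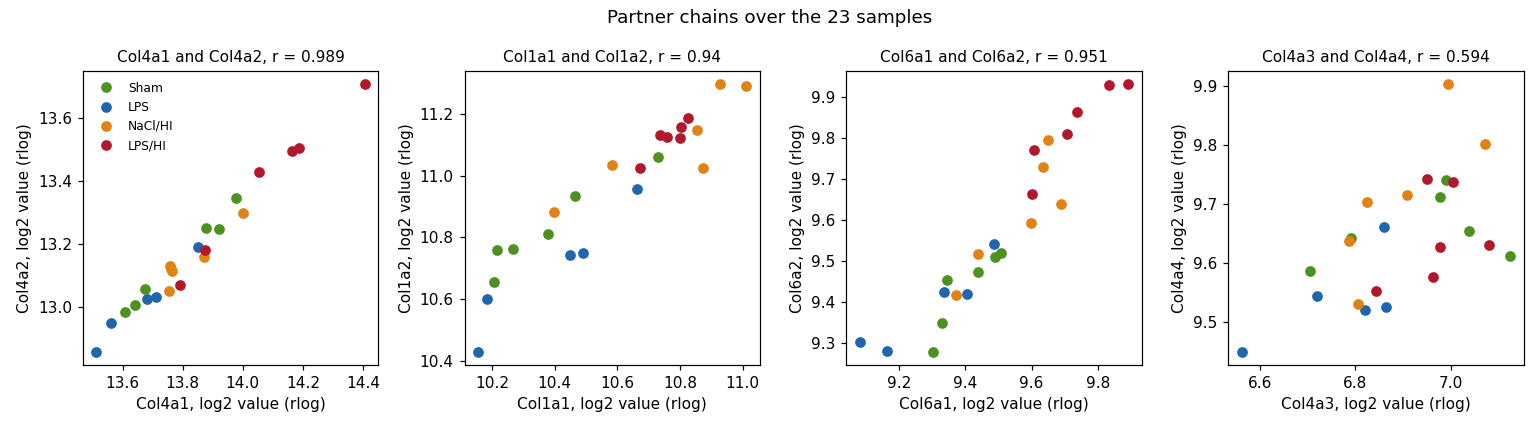
Log2 values (rlog) of 4 partner pairs, the first chain on the horizontal axis and the second on the vertical axis, with 1 point for each of the 23 samples coloured by group and Pearson's r above each panel. Col4a1 and Col4a2 lie close to a line (r = 0.989), while Col4a3 and Col4a4 scatter (r = 0.594).

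Genes that make, process and bind collagens were taken from fixed lists. Of 20 enzymes and chaperones of collagen synthesis, 4 (20%) rose and 0 fell both in LPS and in LPS/HI against Sham, and these comparisons share the Sham group. Beside 17.8% and 8.77% of all genes called there, the share in LPS against Sham was near the background. The 4 genes were Fkbp10, a chaperone of procollagen (0.37 in LPS, adjusted p = 0.000132), Plod1, a lysyl hydroxylase (0.27, adjusted p = 0.000295), Ppib, a prolyl isomerase (0.25, adjusted p = 0.00639), and P4hb, a subunit of prolyl hydroxylase (0.23, adjusted p = 0.00838), which also serve other secreted proteins. The median of the list in LPS against Sham was -0.017. In LPS/HI against LPS, 0 of the 20 were called, with 3 at an unadjusted p under 0.05 in limma. Of 13 genes of procollagen processing and cross-linking, 2 (15.4%) rose in LPS/HI against LPS, beside 1.94% of all genes called. They were Adamts2, which trims the amino end of procollagens (0.49, adjusted p = 0.0273), and Loxl2, a cross-linking enzyme (0.43, adjusted p = 0.00883). Bmp1, which trims the other end, rose by 0.22 in LPS against Sham (adjusted p = 0.00303), and its relative Tll1 fell by 0.31 on the log2 scale (adjusted p = 0.0128). These were the 2 of 13 called in that comparison, a share below the 17.8% of all genes.

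Of 12 collagen receptors, 5 (41.7%) fell and 0 rose in LPS against Sham, beside 7.56% of all genes lower and 17.8% called. Among them were the endocytic receptor Mrc2 (-0.33, adjusted p = 0.00111), the integrin chain Itga1 (-0.30, adjusted p = 0.00574) and the receptor kinase Ddr2 (-0.22, adjusted p = 0.0223). Between LPS/HI and LPS, 2 receptors (16.7%) rose, beside 1.22% of all genes higher, Ddr2 by 0.31 (adjusted p = 0.0208) and Itga1 by 0.27 (adjusted p = 0.0471). Of 17 partners of type IV in the basement membrane, 4 (23.5%) fell in LPS against Sham, beside 17.8% of all genes called and 7.56% lower. In LPS/HI against LPS, which shares the LPS group, 5 (29.4%) rose, beside 1.94% of all genes called. Nid1, the linker of laminin and type IV, rose by 0.33 in the latter (adjusted p = 0.00794), and the laminin chains Lama4 and Lamc1 rose by 0.33 and 0.27 (adjusted p = 0.00883 and 0.0169). The interaction of LPS with HI was called for Lama4 at 0.37 (adjusted p = 0.0361). Of 7 fibril-binding proteoglycans, 1 was called in LPS/HI against LPS and 1 in LPS against Sham. Dcn rose by 0.53 in LPS/HI against LPS (adjusted p = 0.00883) and Bgn fell by 0.34 in LPS against Sham (adjusted p = 0.0142). Of 6 collagen-degrading proteases, Mmp8 and Mmp9, stored in neutrophil granules, rose by 1.04 and 0.75 in LPS/HI against Sham (adjusted p = 0.0476 and 0.0369), 2 of 6 (33.3%) beside 8.77% of all genes called. In LPS/HI against LPS 2 of 6 rose as well, Mmp9 by 0.91 (adjusted p = 0.0452) and Ctsk, a lysosomal protease, by 0.33 (adjusted p = 0.0215), beside 1.94% of all genes called.

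Markers of the cells that commonly make collagens moved beside the chains. Of all genes, 17.8% were called in LPS against Sham, 8.77% in LPS/HI against Sham and 1.94% in LPS/HI against LPS, and the counts of markers stand beside these shares. The mean of 15 fibroblast markers lay between 7.09 and 7.24 in Sham, 6.98 and 7.17 in LPS, 7.14 and 7.33 in NaCl/HI, and 7.22 and 7.34 in LPS/HI. The LPS and LPS/HI samples did not overlap, and 3 fibroblast markers rose in that comparison, Dcn (also counted among the proteoglycans), Tbx18 and Slc47a1. In LPS/HI against Sham, Dcn and Aldh1a2 rose. The lowest of the fibroblast markers, Dpt, had group means of 1.79 in Sham and 1.73 in LPS/HI. For 13 mural cell markers the means lay between 8.08 and 8.39 in Sham, 8.11 and 8.41 in LPS, 8.26 and 8.62 in NaCl/HI, and 8.38 and 8.61 in LPS/HI. Kcnj8, Abcc9 and Vtn rose in LPS/HI against Sham. For 21 endothelial markers the ranges were 10.72 to 10.95, 10.54 to 10.83, 10.66 to 10.76 and 10.72 to 11.06 in the same order of groups, with 6 lower and 1 higher in LPS against Sham and 3 higher in LPS/HI against LPS. The part of these cell types in the differences of the chains was not tested.

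The other marker lists were counted beside the same shares and beside 8.98% of all genes called in LPS against NaCl/HI. Of 15 microglial markers, 6 were lower and 2 higher in LPS against Sham, 5 lower and 2 higher in LPS against NaCl/HI, 2 lower in LPS/HI against Sham and 1 higher in LPS/HI against LPS. Of 9 markers of border-associated macrophages, 3 fell in LPS against Sham, 2 were lower in LPS than in NaCl/HI, 1 fell in LPS/HI against Sham and 0 were called in LPS/HI against LPS. Of 10 astrocyte markers, 3 rose in LPS against Sham, 3 were higher in LPS than in NaCl/HI and 2 rose in LPS/HI against Sham. Of 10 neutrophil markers, 3 rose in LPS/HI against Sham, while 2 fell and 1 rose in LPS against Sham and 1 was lower in LPS than in NaCl/HI. Between LPS/HI and LPS 9 of the 10 had a positive difference, with a median difference of 0.57 and 7 at an unadjusted p under 0.05, and 0 were called in limma. Beside them stand the rise of Mmp9 by 0.91 and the value of Mmp8, 1.21 at an adjusted p of 0.0639, and the part of neutrophils in these values was not tested. The part of these cells in the differences of the chains was not tested. No marker of the oligodendrocyte lineage (10 genes) or the choroid plexus (7 genes) was called in limma in any of the 6 comparisons, and at an unadjusted p under 0.05 there were up to 5 of the former and 0 of the latter.

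**Figure D4:**
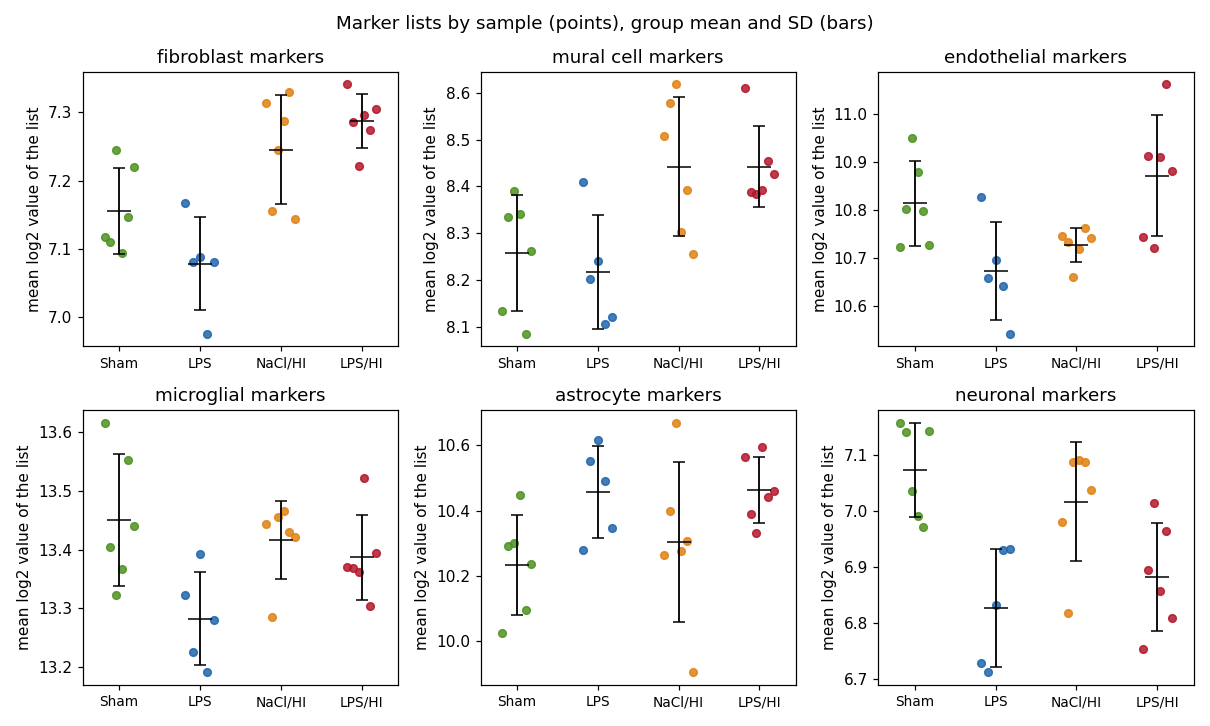
Mean log2 value (rlog) of 6 lists of cell type markers in each sample by group, with points for samples and bars for the group mean and SD, on axes that do not start at 0. The 6 LPS/HI samples of the fibroblast list lie between 7.22 and 7.34, above the 5 LPS samples. The microglial list lies between 13.19 and 13.62 over all samples, with a mean of 13.45 in Sham and 13.28 in LPS.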

How the data were processed

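RNA sequencing of microglia isolated with CD11b/c beads was analysed in 23 samples, grouped by their titles. Per the labels and the study's methods, the authors ran FastQC 0.11.9, MultiQC 1.14 and kallisto 0.48.0 on mRatBN7.2, imported the result into DESeq2, left out genes with fewer than 10 counts over all samples, summed protein-coding genes of the same symbol, applied rlog and corrected for 3 surrogate variables using sva and limma. The log2 values deposited by the authors run from -1.35 to 23.4 over 20301 genes. No counts were used, so depth, which limits the precision of low genes, is unknown.

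All comparisons came from 1 limma fit (limma 3.58.1, R 4.3.3) of 4 group means over 23 samples with a variance trend and the residual degrees of freedom lowered from 19 to 16. The p-values were adjusted by Benjamini-Hochberg over all genes, and a gene was called at an adjusted p under 0.05. Removing variables before deposit narrows the spread within groups, so p-values can come out too low. The labels call the samples biological replicates. No gene was left out as low.

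Same-numbered replicates of different groups did not deviate together (9 of 33 pairs with a correlation over 0.1), so samples were not paired. The chains, gene lists and tests were chosen with earlier results of these data known. Chains were described when called in any comparison, when among the 3 largest differences either way, or as members of a set of 10 (Col1a1, Col1a2, Col3a1, Col4a1, Col4a2, Col6a1, Col6a2, Col6a3, Col15a1 and Col18a1), and of each gene list at most the 4 genes with the lowest adjusted p. Fibroblast and mural cell genes beyond these, and the chains of the 14 not so chosen, were named after their values were seen. Promoters came from RefSeq (GRCr8), whose build differs from the table's, so genes were matched by symbol. Python 3.11.15 with pandas 2.3.3 and matplotlib 3.10.9 searched motifs and drew the plots. Alternatives covered degrees of freedom, variances, scaling, weights, low genes, the test, blocks and left-out libraries.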

Additional observations from a re-analysis of the deposited data

Results flagged for a closer look

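Each of the 30 named chains was examined within each group for a sample far from the others by Dixon's gap test, 120 groups of samples in all, of which chance flags about 1 in 20, or 6, and 10 stood apart. In NaCl/HI replicate 6, Col12a1 was low at 9.38 (next sample 9.62), Col6a4 was low at 5.37 (next 5.69) and Col2a1 was high at 6.69 (next 5.71). In LPS/HI replicate 5, Col10a1 was low at 6.65 (next 6.90) and Col6a4 low at 5.18 (next 5.52). In LPS replicate 1, Col3a1 was high at 11.76 (next 11.49) and Col8a2 high at 9.07 (next 8.68). Col25a1 was high in LPS replicate 5 at 9.66 (next 9.30), Col19a1 high in Sham replicate 5 at 5.29 (next 5.08) and Col5a2 high in Sham replicate 3 at 10.84 (next 10.60). The differences of Col3a1, Col5a2, Col12a1, Col19a1 and Col25a1 in the comparisons where they were called kept their sign without any 1 library. In LPS against Sham, the call of Col12a1 held in 6 and that of Col19a1 in 9 of the 23 fits without 1 library, and in LPS/HI against Sham that of Col19a1 held in 21.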

How the results depend on the processing

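Over the alternatives run, no called difference of a chain turned its direction. Of the 38 calls of single chains, 38 held with 19 residual degrees of freedom, robust variances, array weights or the lowest 25% of genes left out, 35 with the library series as a block, 34 after quantile normalization and 33 after median centring or without a variance trend. A two-sided Wilcoxon rank-sum test in its exact form kept 10 of them, and in LPS/HI against LPS and LPS against NaCl/HI it could call no gene, so its counts there say nothing about stability. Leaving out 2 samples from the correlations within groups was also chosen after seeing the data.

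Counts of called chains are given in the order LPS against Sham, LPS/HI against Sham, LPS/HI against LPS and LPS against NaCl/HI, where 6, 11, 10 and 11 were called. With the replicate block they were 2, 6, 4 and 5, and 17 of the 38 calls held. The replicate numbers are not known to pair the samples, since 9 of 33 same-numbered pairs correlated over 0.1 (range -0.47 to 0.47) and 5 of 23 samples correlated best with their own number. Asking for a fold above 2 as well left 0 in each. The Wilcoxon test gave 2, 10, 0 and 0. In the last 2 comparisons the lowest p that 6 against 5 samples allow came to an adjusted p of 0.104 and 0.0593, so no gene could pass. Each library series fitted alone, an alternative chosen after seeing the data, gave 2, 3, 0 and 5 in the first series and 1, 0, 12 and 3 in the second. The fits of a series alone did not lower the residual degrees of freedom. Leaving out 1 library gave 2 to 6, 3 to 13, 4 to 11 and 4 to 13. For LPS against Sham, 3 were called without Sham replicate 1, 2, 4 or 5 or LPS replicate 2, and 2 without LPS replicate 4.

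In NaCl/HI against Sham, where 0 were called, 1 was called with 19 residual degrees of freedom, 6 with array weights, 5 in the first series alone and 0 to 2 without 1 library. In LPS/HI against NaCl/HI, 1 was called with 19 residual degrees of freedom and 7 with array weights, and in the interaction 3 with array weights. Array weights gave 26 in LPS/HI against Sham and 24 in LPS/HI against LPS. Fitting only the 2 groups compared, without lowering the residual degrees of freedom, gave 18 in LPS/HI against Sham. The cause of these changes was not tested, and the fits that leave libraries out also have fewer samples. Depth is unknown, so a difference in a low chain such as Col6a5 or Col28a1 may not be detectable.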
